A study of Homo sapiens with 10 samples.

Results

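The 10 genes described here are outputs and negative feedback regulators of the ERK mitogen-activated protein kinase cascade: the phosphatases DUSP4 and DUSP6, the Sprouty genes SPRY2 and SPRY4, the Sprouty-related genes SPRED1 and SPRED2, the ETS transcription factors ETV4 and ETV5, the pleckstrin homology-like protein PHLDA1 and the ephrin receptor EPHA2. They were chosen by name, with earlier results of these same arrays in view, so all differences of these genes between cell populations are descriptions. No p-value is printed for them, and where they are counted as called by the fit over all genes, nothing is rested on that count. The 10 genes are among 19775 genes named by exactly 1 symbol on the array, and 28 of the 41097 probe sets with 1 symbol belong to them. All 10 passed the filter on low values through their brightest probe set, and 24 of the 28 probe sets lay at or above it.

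Gene expression was measured on 10 single-channel arrays of total RNA from cultured human gastric cancer cells, grown in medium with fetal bovine serum and harvested with trypsin. Side population cells, which retain little of the DNA dye Hoechst and are separated from the other cells by flow cytometry, were on 4 arrays (replicates a to d). Non-side population cells were on 4 arrays (a to d) and unsorted cells on 2 (a and b). The cells came from AGS and MKN 45, established lines of gastric carcinoma. Both lines are given as the origin of every array, but as source the labels give AGS on 8 arrays and no particular line on replicates a and b of the side population. No label says whether replicates were separate cultures, so all errors and p-values here cover the scatter of these arrays, part of which may be technical. The unsorted cells did not pass the sorter, so the sort and the difference between sorted and unsorted cells cannot be told apart.

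Growth factor receptors activate RAS, RAF, MEK and ERK in turn, and active ERK switches on genes whose products dampen the same cascade. DUSP6 removes the activating phosphates of ERK in the cytoplasm and DUSP4 acts on mitogen-activated protein kinases in the nucleus, whereas Sprouty and SPRED proteins restrain signalling between the receptors and RAF. ETV4 and ETV5 carry part of the transcriptional response, and the transcripts of these genes are widely used as a readout of ERK activity in epithelial cancers.

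The promoter-side sequences of the Sprouty genes are shown because, among the genes whose sequence could be read and printed here, these had the largest average difference between sorted and unsorted cells. The sequences come from the RefSeq promoter table for GRCh38.p14, in which 7 of the 10 genes were matched for reading. Each is the 250 bases before an annotated transcript start, read 5′ to 3′ on the gene's minus strand, with the 4-letter ETS core GGAA, or its complement TTCC, in capitals. The SPRY2 window lies at chr13:80341127-80341376 and the SPRY4 window at chr5:142324248-142324497. SPRY2 had 3 windows, and the one at its annotated gene start is shown. The SPRY2 windows not shown held 4 cores each, with a GC content of 62.4% and 41.2%. SPRY4 had 1 window, which does not lie at its annotated gene start.
SPRY2: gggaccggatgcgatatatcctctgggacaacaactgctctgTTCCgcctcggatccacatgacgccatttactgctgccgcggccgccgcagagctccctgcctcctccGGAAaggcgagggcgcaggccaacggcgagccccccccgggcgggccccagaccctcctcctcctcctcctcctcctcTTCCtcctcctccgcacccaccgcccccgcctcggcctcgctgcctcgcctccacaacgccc
SPRY4: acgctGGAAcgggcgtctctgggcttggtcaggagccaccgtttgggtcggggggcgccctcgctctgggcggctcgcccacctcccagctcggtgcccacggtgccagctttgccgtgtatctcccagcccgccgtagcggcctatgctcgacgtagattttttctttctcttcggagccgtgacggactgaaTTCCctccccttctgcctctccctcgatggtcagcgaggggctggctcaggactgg
The SPRY2 window held 3 cores and had a GC content of 70.4%, and the SPRY4 window held 2 cores and had a GC content of 65.6%. Of 35116 promoter windows of the same length, 92.74% held at least 1 core, with a median of 3, so the presence of a core does not set these windows apart. Neither window held the longer ETS site CCGGAAG, which contains the core and occurred in 8.517% of windows, the AP-1 site TGANTCA (6.573%), the cyclic AMP response element TGACGTCA (1.646%) or the CArG box (1.159%), all searched on both strands. The core was added to the search after the longer sites had given no match. Among the other genes, the DUSP6 window held 6 cores, and the EPHA2 window held 1 cyclic AMP response element letter match.

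The members stood apart between sorted and unsorted cells in different directions. SPRY2 and SPRY4 were higher in both sorted populations than in unsorted cells, DUSP4 was lower in both, and the other 7 genes had smaller or less even differences. Values are intensities on the linear scale on which they were deposited, and log2 fold changes are differences of log2(intensity + 6.1) with the standard error of the fit. Because these are bulk samples, fewer cells that express a gene and less of its RNA per cell cannot be told apart.

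DUSP4, the nuclear phosphatase, had intensities of 3330.9, 4432.5, 2408.6 and 3094.5 in side population replicates a to d. In non-side population replicates a to d it had 2701.6, 2412.7, 1994.1 and 3283. The unsorted arrays read 9219.5 and 10271.9. Both unsorted arrays were above all 8 sorted arrays, and the sorted populations overlapped each other. The means were 3317 ± 840 (SD, n = 4) in side population, 2598 ± 541 (SD, n = 4) in non-side population and 9746 ± 744 (SD, n = 2) in unsorted cells. The log2 fold change against unsorted cells was -1.59 ± 0.28 (SE) for side population and -1.93 ± 0.28 (SE) for non-side population, so that unsorted cells read 3.00 and 3.80 times as high. Of the other DUSP4 probe sets, 204014_at differed by -1.01 and -1.02 and 226034_at by -0.40 and -0.60 (log2, side and non-side population against unsorted), so the sign held in all 3 while the size did not. In 226034_at the side population overlapped the unsorted arrays. The probe set read for DUSP4 was the brightest by little, with a mean log2 of 11.8447 beside 11.8419 for 204014_at.

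DUSP6, the cytoplasmic ERK phosphatase, read 2047.1, 1785.2, 1439.8 and 1487.4 in side population replicates a to d. The non-side population arrays read 1416.3, 872.3, 1841.5 and 980.3, and the unsorted arrays 1006.5 and 1096.8. Every side population array lay above both unsorted arrays, whereas the non-side population spanned them. Log2 fold changes against unsorted cells were 0.67 ± 0.30 (SE) in side population and 0.22 ± 0.30 (SE) in non-side population. The probe set 208891_at gave 0.81 and 0.30, and 208893_s_at gave 0.24 and -0.19. The second of these overlapped the unsorted arrays in both populations.

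SPRY2, which inhibits receptor tyrosine kinase signalling to RAS and RAF, read 2557.8, 2882.4, 2290.4 and 2234.9 in side population replicates a to d. It read 2647.8, 2201.6, 3181.2 and 2360.7 in non-side population replicates a to d and 815.3 and 1017 in unsorted cells. All 8 sorted arrays were above both unsorted arrays, and the sorted populations covered nearly the same range. Means were 2491 ± 296 (SD, n = 4), 2598 ± 431 (SD, n = 4) and 916 ± 143 (SD, n = 2). The log2 fold change was 1.44 ± 0.24 (SE) in side population and 1.49 ± 0.24 (SE) in non-side population, or 2.71-fold and 2.81-fold higher than unsorted cells. SPRY2 has 1 single-symbol probe set, so no other probe set bears on it.

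SPRY4, a second Sprouty inhibitor of the pathway, read 1601.2, 1388.7, 893.7 and 964.9 in side population replicates a to d. It read 762.8, 870.2, 1413.4 and 807.6 in non-side population replicates a to d, and 348.8 and 340.4 in unsorted cells. As for SPRY2, all 8 sorted arrays lay above the unsorted ones, and the sorted populations overlapped. Means were 1212 ± 339 (SD, n = 4), 964 ± 303 (SD, n = 4) and 345 ± 5.94 (SD, n = 2). The log2 fold change was 1.75 ± 0.31 (SE) in side population and 1.42 ± 0.31 (SE) in non-side population, or 3.37-fold and 2.68-fold higher. SPRY4 also has 1 single-symbol probe set.

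**Figure D1:**
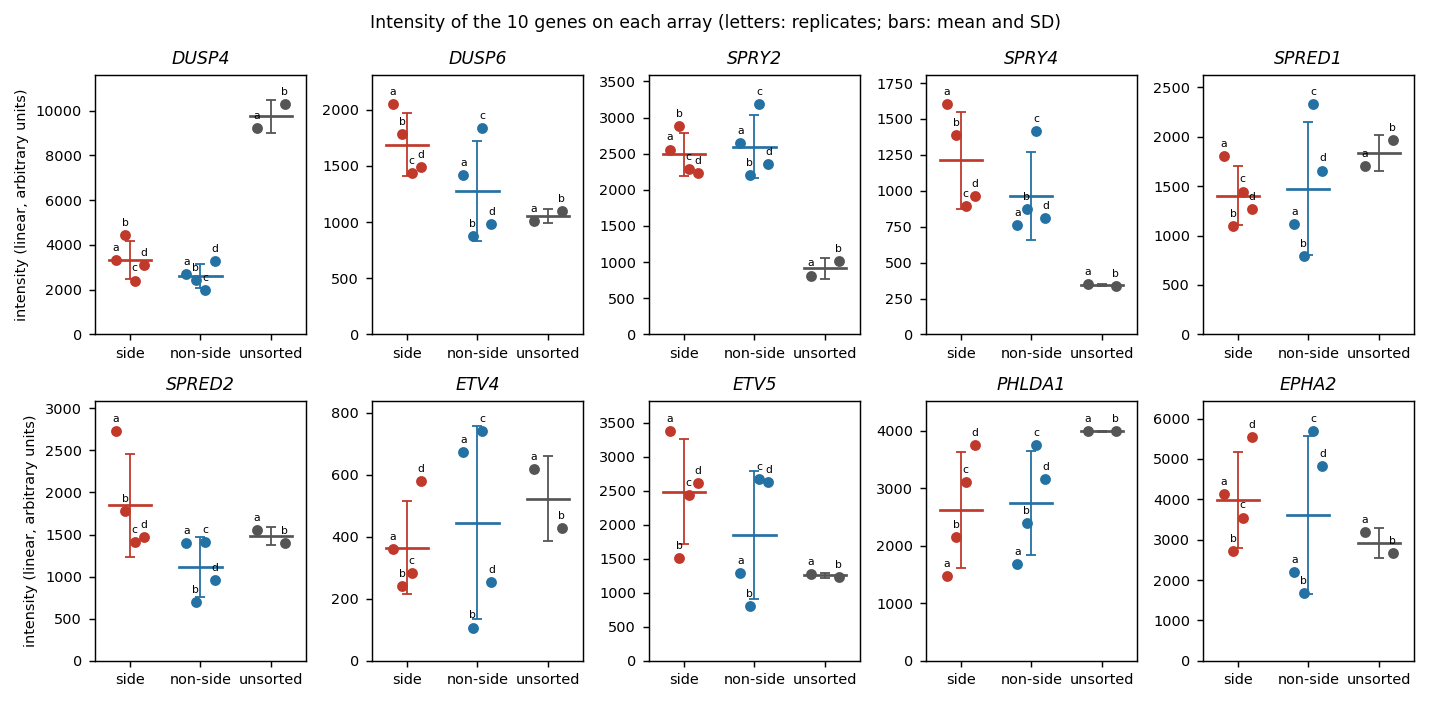
Intensity (linear, arbitrary units) of the brightest probe set of each of the 10 genes on each array, by cell population. Letters mark replicates and bars the mean and SD. In DUSP4 the unsorted arrays, at 9219.5 and 10271.9, sit above all sorted arrays, and in SPRY2 and SPRY4 they sit below all of them.

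SPRED1, a membrane-associated inhibitor that brings the RAS inactivator neurofibromin to the membrane, read 1798.5, 1096.5, 1444.6 and 1271.7 in side population replicates a to d. It read 1118, 792.1, 2324.4 and 1656.8 in non-side population replicates a to d and 1705.4 and 1961.6 in unsorted cells. The groups overlapped, and non-side population replicates b and c held the lowest and the highest of the 10 values. Log2 fold changes against unsorted cells were -0.41 ± 0.36 (SE) in side and -0.43 ± 0.36 (SE) in non-side population. The probe set 235074_at gave 0.13 and -0.0068, and 244439_at, below the filter, gave -1.76 and -1.30.

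SPRED2, its close relative, read 2732.9, 1779.3, 1406.5 and 1466.3 in side population replicates a to d. It read 1402.4, 694.2, 1411.8 and 954.4 in non-side population replicates a to d, and 1557.5 and 1403.4 in unsorted cells. Side population replicate a was the highest array, and the side population range reached from just below the highest non-side value upwards. Among the brightest probe sets of the 10 genes, that of SPRED2 had the largest difference between the sorted populations, 0.73 ± 0.27 (SE, log2), with overlap. A dimmer ETV5 probe set, 203348_s_at, differed by 1.24. Against unsorted cells the brightest SPRED2 probe set differed by 0.27 ± 0.34 (SE) in side and -0.46 ± 0.34 (SE) in non-side population. Below the filter, SPRED2 212466_at and 214026_s_at differed by -0.41 and 1.22 between the sorted populations. Against unsorted cells 212466_at gave -0.65 and -0.25, and 214026_s_at gave 0.95 and -0.27.

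ETV4, an ETS factor of the PEA3 group, varied most within the non-side population of the 10 genes. It read 359.7, 239.5, 282.1 and 578.5 in side population replicates a to d, 674, 107.2, 741.8 and 255.5 in non-side population replicates a to d, and 619.4 and 426.6 in unsorted cells. The groups overlapped throughout. The log2 fold changes were -0.57 ± 0.60 (SE) in both populations against unsorted cells, and its second probe set, 211603_s_at, gave the opposite sign, 0.75 and 0.51.

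ETV5, the related factor, read 3381.6, 1512.8, 2432.3 and 2615.1 in side population replicates a to d. The non-side population arrays read 1297.1, 807, 2664.9 and 2626.7, and the unsorted arrays 1277.7 and 1231.3. All side population arrays lay above the unsorted arrays, and non-side population replicates c and d lay far above replicates a and b. Log2 fold changes were 0.93 ± 0.43 (SE) and 0.39 ± 0.43 (SE). Its other probe sets did not share 1 direction: 230102_at gave 0.89 and 1.01, with all sorted arrays above the unsorted ones, 203348_s_at gave -0.18 and -1.42 and 216375_s_at gave -0.59 and -1.25. The fifth, 231083_at, was below the filter, with unsorted intensities of 2.2 and 28.8.

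PHLDA1, a growth-factor-induced protein, had probe sets that lay wholly on opposite sides of the unsorted arrays. Its brightest probe set read 1478.2, 2155, 3108.6 and 3741.4 in side population replicates a to d, 1682, 2385.9, 3740.3 and 3156.8 in non-side population replicates a to d, and 3985.4 and 3996.7 in unsorted cells. All sorted arrays were below the unsorted arrays there, with log2 fold changes of -0.69 ± 0.37 (SE) and -0.60 ± 0.37 (SE). The probe set 225842_at went the other way. It read 2393.4, 2344.9, 1801.9 and 1848.3 on the side population arrays, 1357.6, 1205.2, 2977 and 2096.9 on the non-side arrays, and 803.3 and 659.1 in unsorted cells, so that all sorted arrays were above the unsorted arrays. Its log2 differences were 1.51 and 1.29. The remaining 4 lay between -1.57 (218000_s_at, side population) and 0.56 (217998_at, non-side population), so no direction is given for PHLDA1.

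EPHA2, an ephrin receptor tyrosine kinase whose gene is switched on by ERK signalling, read 4136.4, 2727.5, 3550.1 and 5535.6 in side population replicates a to d. It read 2201.8, 1688.9, 5700.3 and 4816.2 in non-side population replicates a to d and 3182.9 and 2658.8 in unsorted cells. The groups overlapped, and the non-side population held both the lowest and the highest array. Log2 fold changes were 0.41 ± 0.43 (SE) and 0.13 ± 0.43 (SE).

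Against unsorted cells, with limma's adjusted p over all 9888 genes tested, 2 of the 10 genes were called higher and 1 lower in side population, and the same counts held in non-side population. In both, these were SPRY2 and SPRY4 (higher) and DUSP4 (lower). Over all genes tested, 1.81% were called higher and 0.536% lower in side population, and 2.37% higher and 1.15% lower in non-side population. Since the genes were selected on these values, nothing is read from that comparison. The groups did not overlap for 4 genes with side population above unsorted (DUSP6, SPRY2, SPRY4 and ETV5; 21.3% of all genes) and for 2 below (DUSP4 and PHLDA1; 15.4%). In non-side population, 2 genes lay above (SPRY2 and SPRY4; 15.6%) and 2 below (DUSP4 and PHLDA1; 16.3%). The median log2 fold change of the 10 genes was 0.34 for side population cells and -0.15 for non-side population cells, beside 0.04 and -0.01 over all genes tested. Both comparisons use the same 2 unsorted arrays, so they are not independent of each other. Without unsorted replicate a, or without unsorted replicate b, none of the 3 calls held in either comparison. With only the arrays whose source label names AGS, DUSP4 alone was called in side population, and SPRY2 and SPRY4 had log2 fold changes of 1.31 and 1.41. The DUSP4 call in side population ended when the probe sets of a gene were averaged, and the SPRY4 call in non-side population ended with non-side arrays b and c both left out (1.17).

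**Figure D2:**
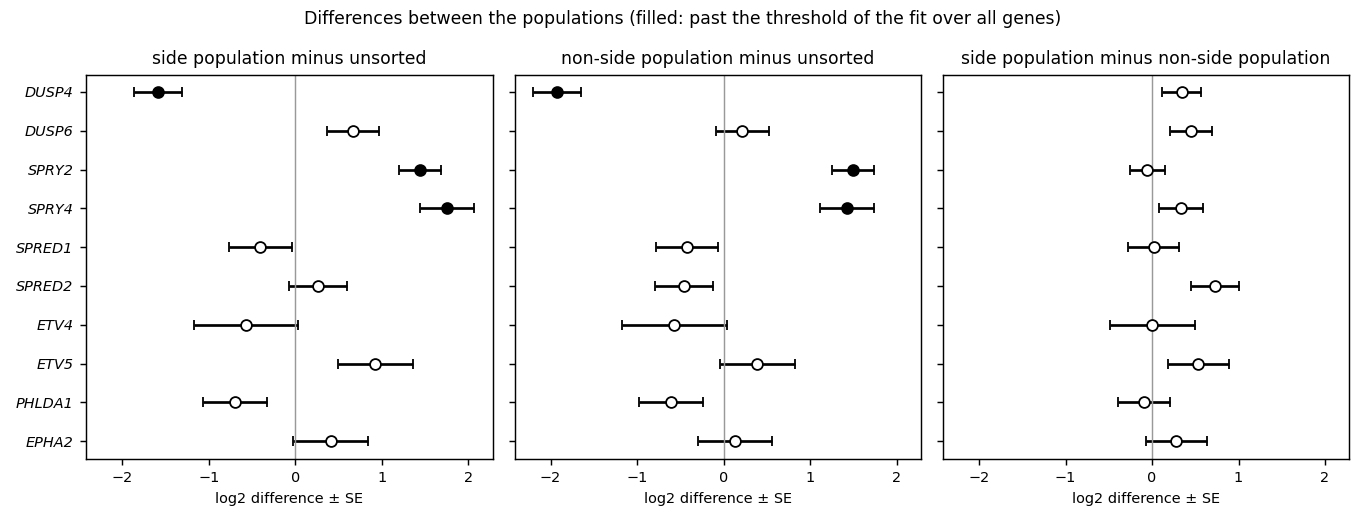
Log2 fold change of each of the 10 genes, with its standard error, for side population against unsorted, non-side population against unsorted, and side against non-side population. SPRY2 and SPRY4 sit between 1.42 and 1.75 against unsorted cells, DUSP4 at -1.59 and -1.93, and all 10 lie within 0.73 of zero between the sorted populations.

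Between side and non-side population, none of the 10 genes was called, and neither was any other gene (0% of 9888 genes tested; limma, with 430 genes at an unadjusted p under 0.05). For no gene of the 10 did all side population arrays lie above all non-side population arrays, or below them, which was so for 1.01% and 0.576% of all genes tested. The log2 difference was positive in 8 genes and negative in 2 (SPRY2 at -0.05 and PHLDA1 at -0.09), with a median of 0.31 beside 0.04 over all genes. After SPRED2, the largest at the brightest probe sets were ETV5 at 0.54 ± 0.36 (SE), DUSP6 at 0.45 ± 0.25 (SE), DUSP4 at 0.34 ± 0.23 (SE) and SPRY4 at 0.33 ± 0.26 (SE). In each of these genes the arrays of both sorted populations overlapped. The titles give same-lettered sorted arrays the same replicate group. Within letters a to d, 7, 9, 1 and 6 of the 10 genes were higher in side population, beside 57.4%, 53.4%, 49.4% and 50.7% of all genes tested. The median log2 differences of the 10 genes were 0.61, 0.78, -0.41 and 0.22, beside 0.12, 0.08, -0.0083 and 0.0062 over all genes tested. The direction therefore differed between letters, and it was mostly negative in c.

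Among the probe sets of the 7 genes that have more than 1, signs differed within 5 genes for side population against unsorted (SPRED1, SPRED2, ETV4, ETV5 and PHLDA1). Over all 6723 genes with more than 1 probe set, 63.5% had mixed signs, so mixed signs are common on this array. With probe sets at or above the filter only, 4 of 6 genes were mixed, beside 52.4% of 4597 genes. Over all 28 probe sets, 9 lay with all side population arrays above the unsorted arrays and 5 below, beside 15.7% and 13.1% of the 41097 probe sets with 1 symbol. For non-side population 6 lay above and 4 below, beside 15.8% and 11.1%.

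**Figure D3:**
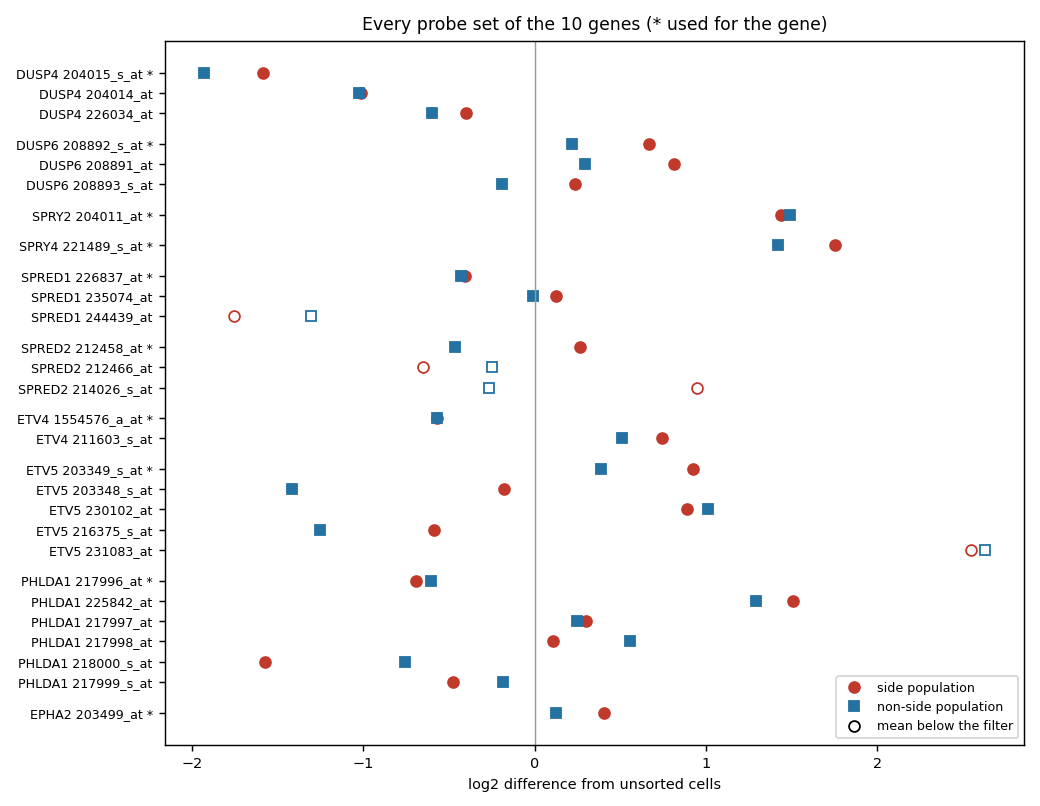
Log2 difference of each of the 28 probe sets for side population against unsorted and non-side population against unsorted, grouped by gene. DUSP4 keeps 1 sign in all 3 of its probe sets, whereas PHLDA1 runs from -1.57 to 1.51.

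The spread over the sorted arrays was uneven between genes and followed single arrays. Non-side population replicate c was the highest of its group in 9 of the 10 genes, the exception being DUSP4, where it was the lowest. Over all genes tested it was the highest in 34.3%. Non-side population replicate b was the lowest in 7 (34.1% of all genes). Side population replicate a was the highest of its group in 5 genes (30.6% of all genes). The log2 range over the 4 non-side population arrays was 2.72 for ETV4, wider than in 99.2% of genes tested, 1.75 for EPHA2 (93.8%), 1.72 for ETV5 (93.3%) and 1.55 for SPRED1 (89.5%), and only 0.53 for SPRY2 (20.0%). The median range of the 10 genes was 1.11 in non-side and 0.92 in side population, beside 0.85 and 0.67 over all genes tested. SPRY2 had the narrowest range of the 10 genes in both sorted populations. Replicate c of the non-side population also had the highest median intensity of all arrays, 85.4 beside 58.7 to 75.2 on the others, and a low 18S ribosomal control (563), and the part of either in its high values was not tested.

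**Figure D4:**
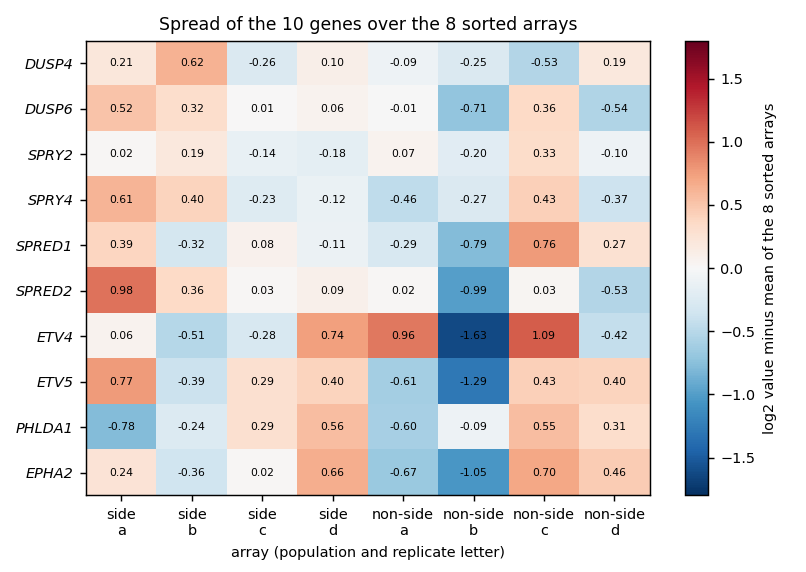
Each of the 10 genes (rows) on each of the 8 sorted arrays (columns), as its log2 value minus its mean over those arrays (colour, with the value printed). Non-side population replicate b lies below the mean in all 10 genes, and replicate c lies above it in 9, with DUSP4 at -0.53.

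Across the 8 sorted arrays, 36 of the 45 pairs among the 10 genes had a positive Pearson correlation of log2 values, with a median of 0.42. The highest was DUSP6 with SPRED2 (0.93), followed by ETV5 with EPHA2 (0.91), SPRED1 with ETV5 (0.87) and SPRED1 with EPHA2 (0.84). The lowest was SPRED2 with PHLDA1 (-0.42). Taking the sorted arrays together, the genes with the pattern most like that of DUSP6 were ENDOD1 (Pearson r 0.971), PRKCA (0.955), SLC23A2 (0.950), VASN (0.944) and BRD2 (0.943). All these correlations describe the same 8 arrays, which share the 2 populations and replicates b and c of the non-side population. The share of positive pairs over all genes tested was not computed, so nothing about the 10 genes is read from these counts.

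Around the 10 genes, 72 other genes of the ERK cascade in 7 lists were examined. The lists were chosen with earlier results of these data known. Their counts, medians and p-values are therefore descriptions, and nothing is read from their comparison with all genes. Of the 72 genes, 63 were measured and 55 tested. In side population 9 were called higher than in unsorted cells and 0 lower, and the same 9 were called higher in non-side population, again with 0 lower (limma, adjusted p under 0.05). Over all genes tested, 1.81% and 2.37% were called higher. The median log2 fold change of the 55 was 0.34 and 0.22, beside 0.04 and -0.01 over all genes. At an unadjusted p under 0.05 the counts were 17 and 20 of the 55, beside 1691 and 1924 of all 9888 genes (17.1% and 19.5%). The count of 9 fell to 4 in side and 5 in non-side population when probe sets were averaged. It fell in side population to 5 without side population replicate a, to 4 without replicate c, to 0 without unsorted replicate a and to 1 without unsorted replicate b, and in non-side population to 1 and 3 without unsorted a or b. Between the sorted populations 0 were called, with 3 of the 55 at an unadjusted p under 0.05 (limma), beside 430 of all 9888 genes (4.35%). These 3 were MAPK3, which encodes ERK1, at -0.62 ± 0.21 (SE), EGR1 at -0.69 ± 0.28 (SE) and SPRY1 at 0.51 ± 0.22 (SE). The 3 are given as values only, and no difference between the sorted populations is read from them.

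Among other feedback inhibitors, 4 of 9 tested were called in both comparisons, with a list median of 0.88 and 0.92. IER3, an immediate early gene that prolongs ERK phosphorylation and so does not act as the list's name says, rose by 1.73 ± 0.23 (SE, limma, adjusted p 0.00255) in side population and 1.96 ± 0.23 (SE, limma, adjusted p 0.00107) in non-side population. RGS2, an inhibitor of G-protein signalling, rose by 1.97 ± 0.30 (limma, adjusted p 0.00606) and 2.08 ± 0.30 (limma, adjusted p 0.00249). PHLDA2, a relative of PHLDA1, and ERRFI1, an inhibitor of the EGF receptor, rose by 1.29 ± 0.27 and 1.07 ± 0.23 (SE) in side population and by 1.27 ± 0.27 and 0.92 ± 0.23 (SE) in non-side population. IER3 was called in 22 and 24 of 24 settings run (side and non-side population) and RGS2 in 23 and 23, but PHLDA2 in 18 and 21 and ERRFI1 in 17 and 11. The PHLDA2 call ended in side population without side array a or c, with no filter and with probe sets averaged. In non-side population it ended without non-side array d. The ERRFI1 call ended in both comparisons without any 1 side population array and with only AGS-labelled arrays. In non-side population it also ended without non-side array a or d. It ended there too with quantile normalization, no filter, eBayes without trend or only the groups compared. Both genes lost their calls without either unsorted array. All unsorted values of these 4 genes lay below all sorted values: IER3 read 2535.6 and 2368.7 in unsorted cells and at least 6980.5 in sorted ones.

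Of 6 other MAPK phosphatases tested, 1 was called, DUSP1, at 0.90 ± 0.22 and 0.94 ± 0.22 (SE), and all 6 were positive in side population. The DUSP1 call was held in 11 of 24 settings for side population and 18 of 24 for non-side population. In side population it ended without any 1 side population array, without non-side array a or d, and with probe sets averaged (0.38). There it also ended with no filter, with the filter at the 75th percentile, with eBayes without trend and with only AGS-labelled arrays. In non-side population the DUSP1 call ended without non-side array a, with no filter, with probe sets averaged (0.96) and with only the groups compared. It ended in both without either unsorted array. The list of other ERK-induced genes had 2 of 11 called: EGR1, an immediate early transcription factor, at 1.81 ± 0.34 and 2.49 ± 0.34 (SE), and ATF3, a stress-induced factor, at 0.94 ± 0.22 and 1.11 ± 0.22 (SE). EGR1 was called in 22 and 23 of 24 settings and ATF3 in 13 and 21. With probe sets averaged, ATF3 turned to -0.18 in side population and fell to 0.41 in non-side population. Its side population call also ended without any 1 side population array, without non-side array a or d, with no filter and with eBayes without trend. Both ATF3 calls ended without either unsorted array. FOSB, which did not pass, was 2.43 ± 0.61 and 1.96 ± 0.61 (SE). DUSP1, EGR1, ATF3, FOSB and IER3 are known as genes that stress induces as well as growth factors. Upstream of RAS, 2 of 15 receptors and adaptors were called, FGFR3 (1.85 ± 0.32 and 1.57 ± 0.32, SE) and ERBB3 (1.60 ± 0.33 and 1.48 ± 0.33, SE). With probe sets averaged all 4 of these calls ended, at 0.34 and 0.64 for FGFR3 and 0.69 and 0.71 for ERBB3. The ERBB3 call also ended in side population without side array c, and in non-side population without non-side array d. Of 13 genes on the list of the cascade core, only 8 were measured: HRAS, ARAF, KSR1, MAP2K1, MAP2K2, MAPK3, RPS6KA1 and RPS6KA3. Of these 8, 0 were called and 6 were negative in both comparisons, with medians of -0.29 and -0.35. The other core genes had no reading. No ligand of the EGF receptor (3 tested) and no RAS GTPase-activating protein (3 tested) was called.

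**Figure D5:**
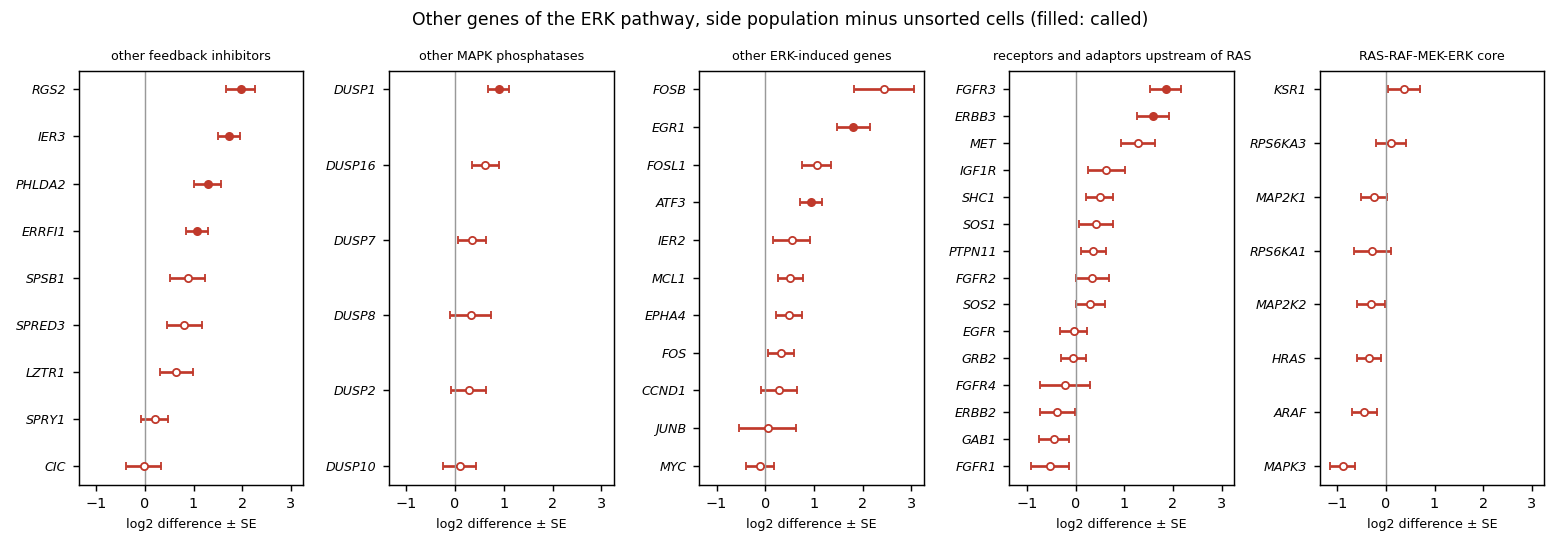
Log2 difference from unsorted cells in side population, with its standard error, for the tested genes of the pathway lists that had more than 3 tested genes, 1 panel a list; filled points were called. The feedback inhibitors have a median of 0.88 and the 8 measured genes of the 13 on the core list one of -0.29, with MAPK3 lowest at -0.89.

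The arrays also differed in quality measures and line markers. In side population replicate a the 3′ to 5′ ratio was 3.34 for actin and 1.87 for GAPDH, beside at most 1.28 and 1.06 on the other 9 arrays. That array was the highest of its group for DUSP6, SPRY4, SPRED1, SPRED2 and ETV5, and without it all 3 calls against unsorted cells held in both comparisons. The 18S ribosomal control was below 900 on side population replicate d, non-side population replicate c and both unsorted arrays, and from 22182.4 to 33704 on the other 6. On the sorted arrays with a low control, SPRY2 read 2234.9 and 3181.2, SPRY4 964.9 and 1413.4, and DUSP4 3094.5 and 1994.1. The part of this control in the differences of these genes from unsorted cells was not tested. Of 6 gastric epithelial markers, all were tested and 0 called, with a summed intensity of 80084.9 to 137747 over the 10 arrays. KRT18, KRT8, EPCAM and KRT19 made up most of that sum, so it hides the dimmer markers. Against unsorted cells 5 were negative and 1 positive in both sorted populations, with medians of -0.37 (side) and -0.24 (non-side). ELF3 was lowest, at -0.87 ± 0.28 and -0.73 ± 0.28 (SE). No leukocyte marker (0 of 3 measured) and no endothelial marker (0 of 3) passed the filter, and their summed intensities reached at most 175.5 and 250.6. Of 4 fibroblast markers COL1A1 alone passed, and the sum ran from 1224 to 2159.3 in side population, 1136.1 to 1670.5 in non-side population and 1382 to 2120.2 in unsorted cells. The dye pumps ABCG2 and ABCB1, which define a side population, were both below the filter, with a sum of 32 to 264.4 in side population, 53.4 to 179.5 in non-side population and 93.8 to 121.7 in unsorted cells. Among genes linked to MKN 45, CEACAM5 was called higher in both, by 2.44 ± 0.39 (SE, limma, adjusted p 0.00782) for side population and 2.60 ± 0.39 (SE, limma, adjusted p 0.00307) for non-side population. With probe sets averaged, CEACAM5 fell to 0.87 and 0.99 and neither call held. The CEACAM5 call also ended in side population without either unsorted array, and in non-side population without unsorted replicate a. This list was chosen with earlier results of these data known, so its p-values are descriptions too. MET, also counted among the receptors, was 1.28 ± 0.34 and 0.90 ± 0.34 without passing, and CEACAM6 was -0.45 ± 0.20 in both. The summed intensity of those 3 genes ran from 12477.8 to 16003.6 in side population, from 11397.6 to 16138.5 in non-side population and from 13817.4 to 14396.2 in unsorted cells. CEACAM6 made up most of that sum, so it hides the single genes. Every sorted array lay above both unsorted arrays for CEACAM5 (at least 1189.6 against 339.6 and 477) and MET (at least 1334.3 against 1269.5 and 1218.5). For CEACAM6 every sorted array lay below both (at most 10115.9 against 12208.3 and 12700.7). Of all genes tested, 21.3% in side and 15.6% in non-side population lay wholly above unsorted cells, and 15.4% and 16.3% wholly below. The part of line composition in the differences of SPRY2, SPRY4 and DUSP4 was not tested.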

How the data were processed

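Total RNA on 10 arrays was analysed from the deposited table of 54675 probe sets. The authors deposited intensity values on a linear scale. The submitters' processing notes name GCOS 1.4, and its role and settings are not given in the sources used here. Since the 2% trimmed mean was 500.065 to 500.095 on every array, values were not rescaled. Before log2, 6.1 was added (the 10th percentile of intensities), which understates changes of dim genes. A gene was read from the single-symbol probe set with the highest mean log2 intensity, named through the platform annotation (1801 probe sets had several symbols and 11777 had none). The 9888 genes at or above the median of that mean (intensity 149) were fitted in limma 3.58.1 (R 4.3.3; lmFit, contrasts.fit, eBayes with trend), as 3 groups over 10 arrays without covariates. Genes were called at a Benjamini-Hochberg adjusted p under 0.05. The fit was also run on simulated data, with independent noise of the same spread in all groups for each gene. Those data held no shared array effects or outlying arrays, so nothing about the calls is rested on that run. Precision is limited by the number of arrays, above all the 2 unsorted ones.

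Members and lists were chosen with earlier results of these data known. The naming rule took all 10 members, the called genes of each list (up to 4 per comparison by smallest p, otherwise up to 3 as values), the 5 genes most correlated with DUSP6 over the sorted arrays, and the promoter windows of up to 3 members with the largest average difference from unsorted cells (ETV5 is named only). Alternatives were another or no constant, a floor, other filters, quantile normalization, averaged or separate probe sets, eBayes without trend, fewer groups, AGS-labelled arrays alone, omission of single arrays, and a block for the replicate letter.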

Additional observations from a re-analysis of the deposited data

How the results depend on the processing

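Against unsorted cells, DUSP4, SPRY2 and SPRY4 kept their sign under each alternative in which they were tested. Members called in side population fell from 3 to 1 with only arrays labelled AGS, and ranged from 0 to 3 on leaving out 1 array in each comparison with unsorted cells; with 1 unsorted array left, it is assumed to vary like the other groups. Of all genes, 232 were called in side population. The count was 100 with a filter at the 75th percentile (which leaves out SPRY4), 144 with probe sets averaged, 904 with every probe set tested, 437 with only the groups compared, 94 with only AGS-labelled arrays, 474 with non-side arrays b and c both left out (chosen after seeing the data), and 9 to 393 on leaving out 1 array. It was 98, 126 and 135 without side population a, b or c, 393 without non-side b or c, and 9 and 16 without unsorted a or b. In non-side population 348 were called, 144 with that filter, 1583 with every probe set, 196 with only the groups compared, and 12 to 656 on leaving out 1 array (223, 656 and 220 without non-side a, c or d, 12 and 37 without unsorted a or b). Pathway genes called were 4 and 5 with probe sets averaged, and 0 to 12 and 1 to 12 on leaving out 1 array.

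Some log2 differences changed sign, among them ATF3 in side population, which had been called at 0.94, and the cause was not tested. Between the sorted populations, ETV4 was -0.049 with the constant at the median intensity, and SPRED1 was -0.076 with quantile normalization and -0.098 with probe sets averaged. With probe sets averaged, ETV4 in side population was 0.089, PHLDA1 in non-side population 0.092 and ATF3 in side population -0.18. With AGS-labelled arrays only, the difference between sorted populations was -0.0070 for SPRY4, -0.0043 for SPRED1 and 0.38 for PHLDA1, and SPRED2 in side population against unsorted was -0.042. With non-side arrays b and c both left out, ETV4 between sorted populations was -0.27, PHLDA1 0.098, and SPSB1 in non-side population -0.024. On leaving out 1 array, differences between sorted populations ran from -0.13 to 0.049 for SPRY2, -0.24 to 0.28 for SPRED1, -0.54 to 0.37 for ETV4, -0.30 to 0.16 for PHLDA1 and -0.025 to 0.56 for EPHA2, and EPHA2 in non-side population from -0.15 to 0.43.

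With the replicate letter as a replicate block, 0 members, 0 genes and 0 pathway genes were called between the sorted populations, as without it. Deviations of same-lettered arrays correlated at 0.21, 0.50, -0.12 and 0.36 (a to d), and not every array correlated best with its own letter. The titles give same-lettered sorted arrays the same replicate group but do not say what it marks, so whether a letter pairs the arrays is not known.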
